A study of Aquarana catesbeiana with 18 samples.

Results

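Crystallins are the abundant proteins of the eye lens, and 8 genes of their alpha and beta families were followed through eyes, skin and liver of albino and wild-type American bullfrogs (Aquarana catesbeiana). The alpha crystallins were CRYAA and CRYAB. The beta crystallins were the acidic members CRYBA1, CRYBA2 and CRYBA4 and the basic members CRYBB1, CRYBB2 and CRYBB3. They were taken by gene symbol alone and are 8 of the 24636 genes in the count table. Total RNA was sequenced from eyes, skin of the back and liver of albino bullfrogs and from the same tissues of wild-type bullfrogs, with 3 libraries in each of 6 groups, and the total count per library lay between 34.3 M and 39.2 M. The study asked how gene expression in these tissues differs between albino and wild-type animals. The labels name no albino mutation, age or sex. They do not say whether the 3 libraries of a group came from separate animals, so p-values measure only the spread between libraries, which may be technical. The eye samples are labelled only as eyes, with no account of which parts of the eye went into the RNA.

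The alpha crystallins belong to the small heat shock proteins and act as chaperones that hold partly unfolded proteins in solution. In mammals CRYAA is found mainly in the lens, while CRYAB is also abundant in skeletal muscle, heart and glia. The beta crystallins, like the related gamma crystallins, have no chaperone role of this kind: they are packed at very high concentration in the elongated fibre cells of the lens and give it its refractive power.

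The eye libraries of the albino group did not resemble each other in lens RNA, and this stands before every albino eye result. The 8 genes together held 0.264%, 0.279% and 5.98% of all counts in albino eyes 1, 2 and 3, against 8.86%, 13.8% and 9.82% in wild-type eyes 1, 2 and 3. All crystallin and lens fibre genes examined, 76 in number, held 0.291%, 0.306% and 8.83% of counts in the albino libraries, against 23.1%, 38.3% and 26.8% in the wild-type libraries. Albino eyes 1 and 2 thus carried almost no lens RNA, and albino eyes 3 carried less than any wild-type library. Of the lens markers, 6 of 7 were in the table. Their summed level was 14.5 and 4.88 counts per 1000000 counted reads (CPM) in albino eyes 1 and 2 and 22983 CPM in albino eyes 3, against 25483 to 40687 CPM in wild-type eyes, and 3 and 2 of these markers were at 0 in albino eyes 1 and 2. CRYAA and CRYBB2 are among these markers and supply most of the sum. Of the fibre cell markers that are no crystallins, LIM2 had 0.379, 0.579 and 67.8 CPM in albino eyes, against 462, 597 and 569 CPM in wild-type eyes, and BFSP1 had 0, 0 and 10.0 CPM in albino eyes, against 202, 714 and 615 CPM in wild-type eyes. Both were at or near 0 in albino eyes 1 and 2. Rod and cone markers, by contrast, were high in all 6 eye libraries, with 41807 to 59303 summed CPM in albino eyes and 21974 to 34431 summed CPM in wild-type eyes over 9 of 11 listed genes. In bulk tissue, fewer lens cells and less RNA per lens cell cannot be told apart, and the part of the amount of lens in the eye differences described here was not tested.

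Levels below are FPKM, fragments per kilobase of gene and per 1000000 counted reads of the library, which allows genes to be compared per length. CRYAA, the alpha crystallin largely restricted to the lens in mammals, had 15.3, 2.35 and 20744 FPKM in albino eyes 1, 2 and 3, against 20634, 30214 and 22377 FPKM in wild-type eyes 1, 2 and 3. Albino eyes 3 lay inside the wild-type range, where CRYAA was the most abundant of the 8, and the other albino libraries lay far below it. CRYAB, the more widely expressed alpha crystallin, had 2939, 3128 and 9049 FPKM in albino eyes, against 3678, 6761 and 3623 FPKM in wild-type eyes. The groups overlapped: albino eyes 3 had the highest level of all 6 libraries, and albino eyes 1 and 2 the lowest. CRYAB was therefore the 1 gene of the 8 that stayed abundant where LIM2 and BFSP1 were nearly absent, at 62.7% and 66.7% of the wild-type mean in albino eyes 1 and 2, while the other 7 genes had 0.00562% to 0.0627% of it.

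The acidic beta crystallins are the partners of the basic ones in the mixed complexes of lens fibres. CRYBA1 had 5.69, 1.60 and 12437 FPKM in albino eyes, against 18199.5, 27824.5 and 20364 FPKM in wild-type eyes. CRYBA2 had 2.13, 0.893 and 5533.5 FPKM in albino eyes, against 12062, 17808 and 13898 FPKM in wild-type eyes. For both genes every albino library was below every wild-type library, with albino eyes 3 nearest to them. CRYBA4 had 0.750, 0.567 and 779 FPKM in albino eyes, against 8175.5, 12686 and 8931 FPKM in wild-type eyes. Here too the groups did not overlap, and albino eyes 3 itself stood more than a full order of magnitude below the wild-type mean, at 7.85% of it.

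Among the basic beta crystallins, CRYBB1, a fibre cell protein with a long N-terminal arm in mammals, had 1.98, 1.40 and 1852 FPKM in albino eyes, against 13175, 20357 and 15160.5 FPKM in wild-type eyes. CRYBB2, in mammals the most abundant beta crystallin of the adult lens, had 3.68, 2.75 and 9146 FPKM in albino eyes, against 10627, 18448 and 11190.2 FPKM in wild-type eyes. CRYBB3 had 3.50, 0.981 and 9948.5 FPKM in albino eyes, against 14237, 22139 and 15974 FPKM in wild-type eyes. The groups were separate for all 3 genes, with CRYBB1 the lowest of them in albino eyes 3. In all, 6 of the 8 genes, the beta crystallins, had every albino library below every wild-type library; this held for 8.33% of the 17817 genes tested in eyes, and separation in either direction held for 40.6% of them.

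**Figure D1:**
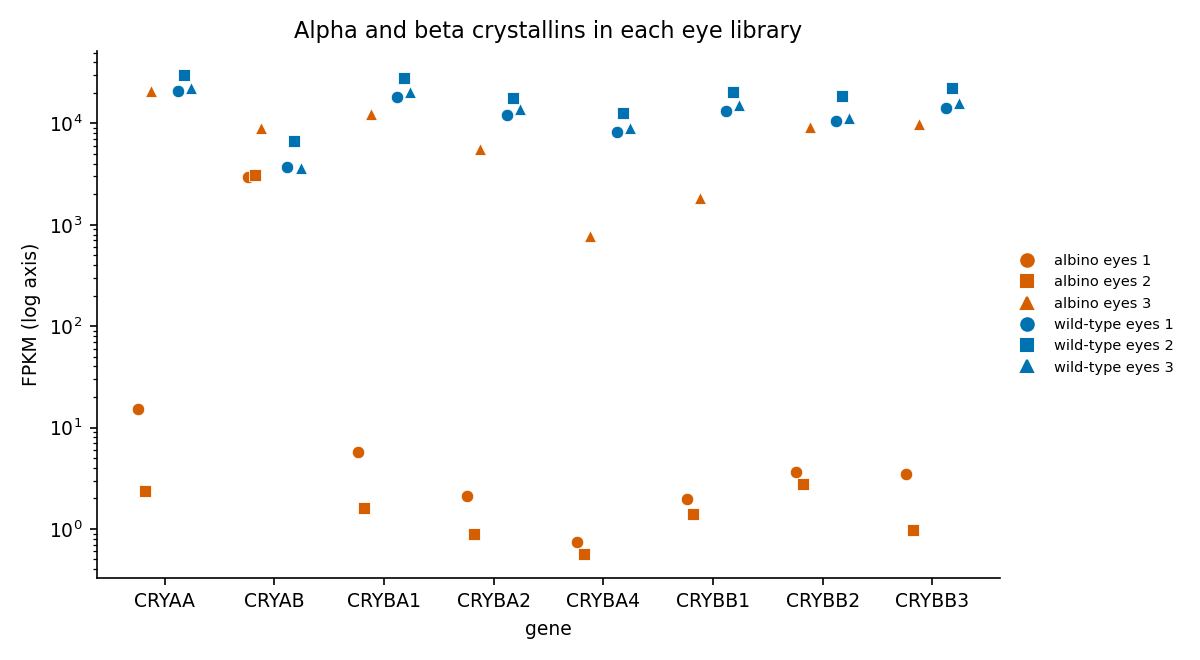
FPKM of each alpha and beta crystallin (log axis) in the 3 albino eye libraries (orange, left) and the 3 wild-type eye libraries (blue, right); each point is 1 library. Albino eyes 1 and 2 lie between 0.567 and 15.3 FPKM for every gene but CRYAB, which has 2939 and 3128 FPKM there, while albino eyes 3 lies within or below the wild-type points for 7 genes and above them for CRYAB.

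With all libraries in the fit, none of the 8 genes passed the test between albino and wild-type eyes. In edgeR's quasi-likelihood test with Benjamini-Hochberg adjustment at a false discovery rate of 0.05, 11.2% of 17817 genes were called and 6.1% were called lower in albino eyes. Of the 8 genes 0 were called and 0 had an unadjusted p under 0.05; DESeq2 also called 0 of the 7 to which it gave an adjusted p, with 2 under 0.05 unadjusted. The log2 difference between albino and wild-type eyes was most negative for CRYBA4, at -5.52 ± 3.14 (SE, edgeR adjusted p = 0.32), and for CRYBB1, at -4.97 ± 3.06 (adjusted p = 0.355). CRYAB had -0.20 ± 0.57 (adjusted p = 0.845), and the other 5 lay between -3.24 and -2.08 with SEs of 2.96 to 3.13. The median was -2.67 for the 8 genes and 0.01 for all genes tested. The median of the 8 depended on the fit: it was -11.4 with the replicate block and -8.88 to -8.54 by limma on log2 FPKM, where 0 of the 8 were called and 2 to 6 had an unadjusted p under 0.05. The SEs of the 7 genes other than CRYAB were near 3 log2 units, with the albino libraries far apart. Each edgeR SE given here was derived from the test statistic.

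A single library decided these calls. Without albino eyes 3, edgeR called 7 of the 8 genes lower in albino eyes, where 7.27% of 18215 genes were called and 4.4% called lower, with log2 differences from -14.2 for CRYBA4 (adjusted p = 0.000155) to -11.8 for CRYAA (adjusted p = 0.00777). CRYAB was not among them, at -0.97 ± 0.41 (adjusted p = 0.188). With albino eyes 1 and 2 left out instead, a setting chosen after the values were seen, edgeR called 0 of the 8, where 0.328% of 18925 genes were called; 3 of the 8 had an unadjusted p under 0.05. In that fit the lone albino library is assumed to vary as the wild-type libraries do. CRYBA4 then had a log2 difference of -3.94 ± 0.59 (adjusted p = 0.102) and CRYBB1 one of -3.40 ± 0.59 (adjusted p = 0.142), while CRYAA had -0.50 ± 0.48 (adjusted p = 0.683) and CRYAB 0.67 ± 0.54 (adjusted p = 0.634). The sign for CRYAB therefore depended on which libraries were used, and it also turned to 0.10 with unscaled library totals, which shift the median of all genes by 0.275.

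**Figure D2:**
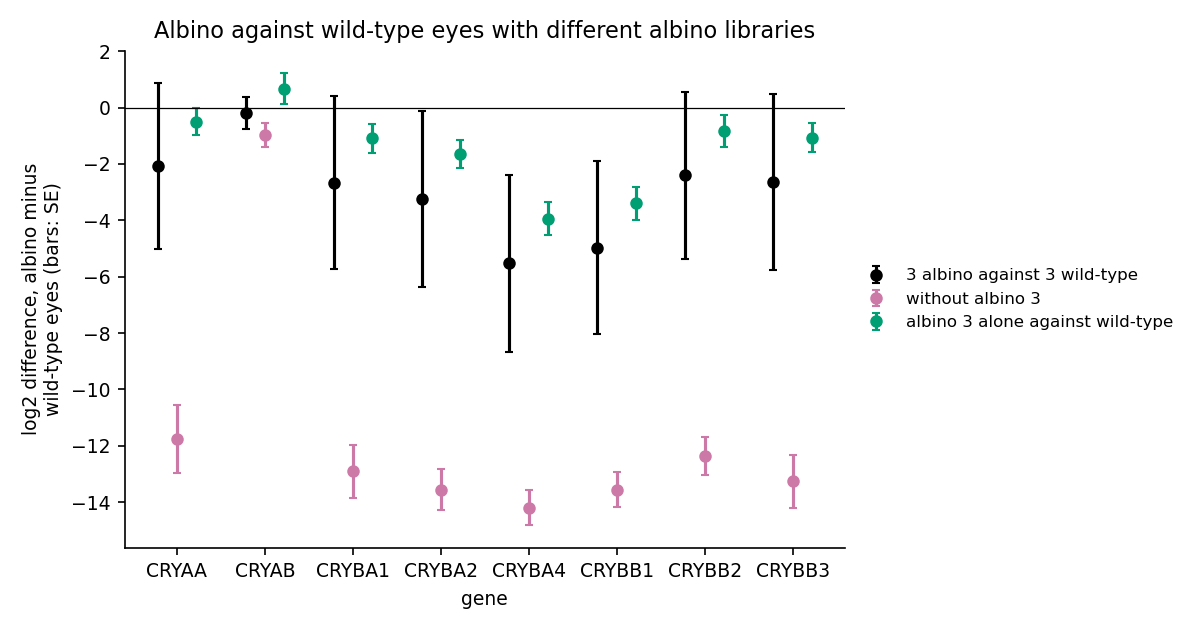
Log2 difference between albino and wild-type eyes for each gene from edgeR (points, with bars for the SE), with all 3 albino libraries (black), without albino eyes 3 (pink) and with albino eyes 3 alone (green). Without albino eyes 3 the genes other than CRYAB lie between -14.2 and -11.8; with it alone they lie between -3.94 and -0.50.

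The wild-type eyes gave a steady make-up of this RNA. By mean FPKM the order was CRYAA at 24408 ± 5103, CRYBA1 at 22129 ± 5049.6, CRYBB3 at 17449.8 ± 4153, CRYBB1 at 16231 ± 3709, CRYBA2 at 14589 ± 2934, CRYBB2 at 13422 ± 4362, CRYBA4 at 9931 ± 2416 and CRYAB at 4688 ± 1796 (SD, n = 3). Neighbours in this order differed by less than the larger of their SDs except for CRYAB, which was below CRYBA4 by more than either SD. Wild-type eyes 2 had the highest level of every gene. Within each library the order was nonetheless the same, apart from CRYBB2 standing above CRYBA2 in wild-type eyes 2. CRYBB3 held 14.1%, 14.2% and 14.3% of the summed FPKM of the 8 genes in wild-type eyes 1, 2 and 3, and CRYBA4 held 8.11%, 8.12% and 8.01%.

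Albino eyes 3 kept this make-up for 2 of the 8 genes and departed from it for the other 6. CRYBB3 held 14.3% of the sum and CRYBA1 17.9%, against 14.1% to 14.3% and 17.8% to 18.3% in wild-type eyes. CRYBA4 held 1.12% in albino eyes 3, against 8.01% to 8.12% in wild-type eyes, and CRYBB1 held 2.67%, against 13.0% to 13.6%. CRYAA held 29.9%, against 19.3% to 20.5%, and CRYAB 13.0%, against 3.25% to 4.33%. CRYBA2 held 7.96%, against 11.4% to 12.5%, and CRYBB2 13.2%, against 10.0% to 11.8%. Only CRYBA1 and CRYBB3 thus held a share like that of the wild-type libraries. The alpha crystallins thus took up a larger part of the sum, and CRYBA4 and CRYBB1 a much smaller one, than in any wild-type library.

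Over the groups, the alpha crystallins made up 99.4%, 99.7% and 42.9% of the summed FPKM in albino eyes, against 24.1%, 23.7% and 23.3% in wild-type eyes. Every albino library was higher. The means were 80.7% ± 32.7 in albino eyes and 23.7% ± 0.405 in wild-type eyes (SD, n = 3 each), with a two-sided exact permutation p of 0.1, the smallest that 3 against 3 allows. In albino eyes 1 and 2 nearly all of this is CRYAB, at 98.9% and 99.7% of the sum. The share of all counts held by the 8 genes averaged 2.17% ± 3.29 in albino eyes and 10.8% ± 2.60 in wild-type eyes, again with an exact permutation p of 0.1, the smallest possible.

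**Figure D3:**
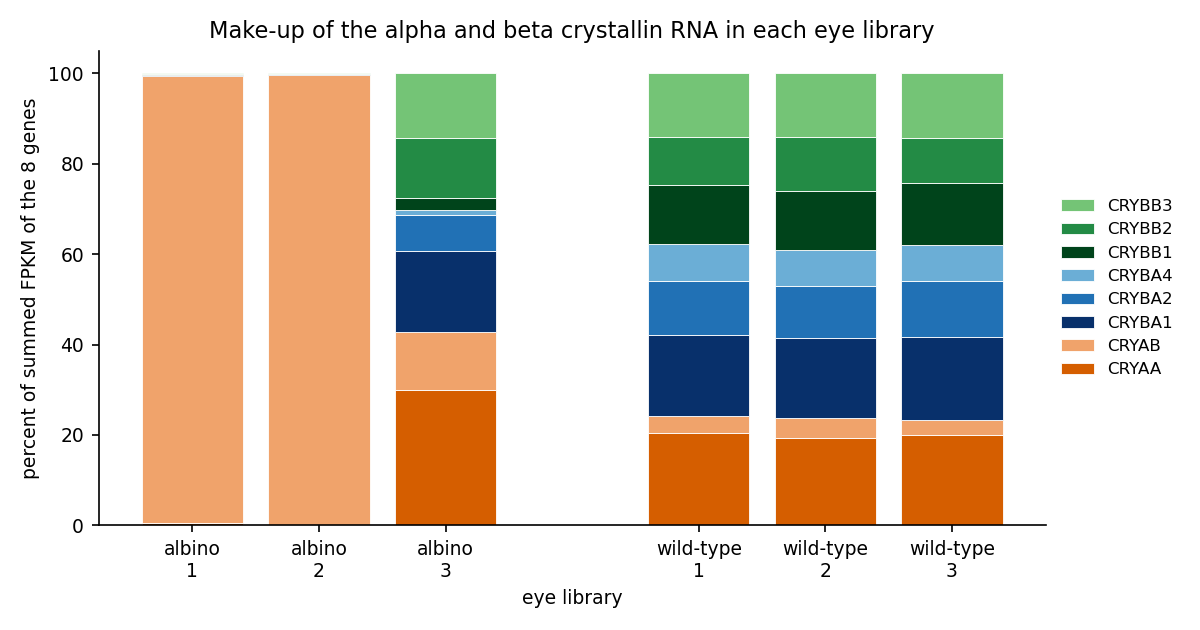
Percent of the summed FPKM of the 8 genes held by each gene in the 3 albino (left) and 3 wild-type (right) eye libraries; colours stand for genes, with oranges for alpha, blues for acidic beta and greens for basic beta crystallins. Albino eyes 1 and 2 are almost wholly CRYAB, albino eyes 3 has thin bands for CRYBA4 at 1.12% and CRYBB1 at 2.67%, and the wild-type libraries look alike.

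CRYBA4 and CRYBB1, the lowest of the 8 in albino eyes 3 relative to wild type, are neighbouring genes in the RefSeq annotation of assembly ASM4218655v1. They had 7.85% and 11.4% of the wild-type mean in that library. CRYBB2 and CRYBB3 are also neighbours, and had 68.1% and 57.0%. Next to CRYBA1 lies LOC141129065, annotated as beta-crystallin B1-like, which had 10.9% of the wild-type mean in albino eyes 3, while CRYBA1 had 56.2%. Of these 3 neighbouring pairs, then, the members were at like levels in 2 pairs and far apart in the other. LOC141129065 had 0.0887, 0 and 347 FPKM in albino eyes, against 2787, 4050 and 2706 FPKM in wild-type eyes. A non-coding gene that overlaps CRYBA4, LOC141143882, had 0 counts in all 6 eye libraries.

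Other lens genes were set beside the 8, from a list of fibre cell genes without crystallins and from the 55 gamma crystallin rows of the table. In albino eyes 3 the 8 genes had a median of 56.6% of their wild-type mean, with a range of 7.85% to 193%. The 55 gamma crystallin rows had a median of 0.0155%, with 22 rows at 0 and 42 under 1%, and a range up to 186%. Thus in this 1 library most gamma crystallin rows were near 0, while each of the 8 genes kept at least 7.85% of its wild-type mean. The families overlapped: some gamma rows stood above CRYBA4 at 7.85% and CRYBB1 at 11.4%. Many of the gamma rows are close relatives, between which the counting may have split reads. Gamma RNA as a whole was lower but not absent in that library. The summed FPKM of the 55 rows was 20623 in albino eyes 3, against 171544, 293039 and 201783 in wild-type eyes 1, 2 and 3. CRYGN, the gamma N crystallin, which stands between the beta and gamma families in structure, had 0.117, 0.185 and 363 FPKM in albino eyes, against 7486, 12559.7 and 9377 FPKM in wild-type eyes. Its level in albino eyes 3 was 3.70% of the wild-type mean. Among the 3 gamma rows with the highest mean level in eyes, LOC141147732 had 81.3% of its wild-type mean in albino eyes 3, against 6.41% for LOC141147752 and 5.27% for LOC141146797. In the comparison of all eye libraries, 54 of the 55 gamma rows were tested and 32 were called lower in albino eyes. Over all 17817 genes tested there, 6.1% were called lower.

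Of the 9 lens fibre genes listed, 8 were in the table and tested, and 2 were called, both lower in albino eyes: LGSN, a lens protein related to glutamine synthetase, at a log2 difference of -8.14 ± 0.73 (edgeR adjusted p = 0.00443), and TDRD7, a Tudor domain protein of lens RNA granules, at -2.06 ± 0.29 (adjusted p = 0.0102). DESeq2 called LIM2 as well, where it called 9.95% of 19563 genes lower. Over all genes tested in eyes, edgeR called 6.1% lower. With albino eyes 1 and 2 left out, the median log2 difference of the 8 fibre genes in edgeR was -2.94. The beaded filament genes BFSP1 and BFSP2 had 1.96% and 4.17% of the wild-type mean in albino eyes 3, and the membrane protein LIM2 had 12.5%. The connexin GJA3, which joins fibre cells, had 19.6%. The gene MIP was matched by its product text only, as LOC141127453, and had 29.0%. The median over the 8 fibre genes in the table was 16.0%, between the medians of the 8 crystallins and of the gamma rows. The fibre genes ranged widely, from 0.543% for LGSN to 38.9% for TDRD7 and 83.0% for DNASE2B. Neither TDRD7 nor DNASE2B is confined to the lens. The summed FPKM of these 8 fibre genes was 91.4 in albino eyes 3, against 830.6, 1622.5 and 1387.9 in wild-type eyes 1, 2 and 3. The MIP row was left out of this sum and of the median. MIP had 246.9 FPKM in albino eyes 3, against 638, 1141 and 775.5 FPKM in wild-type eyes 1, 2 and 3.

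**Figure D4:**
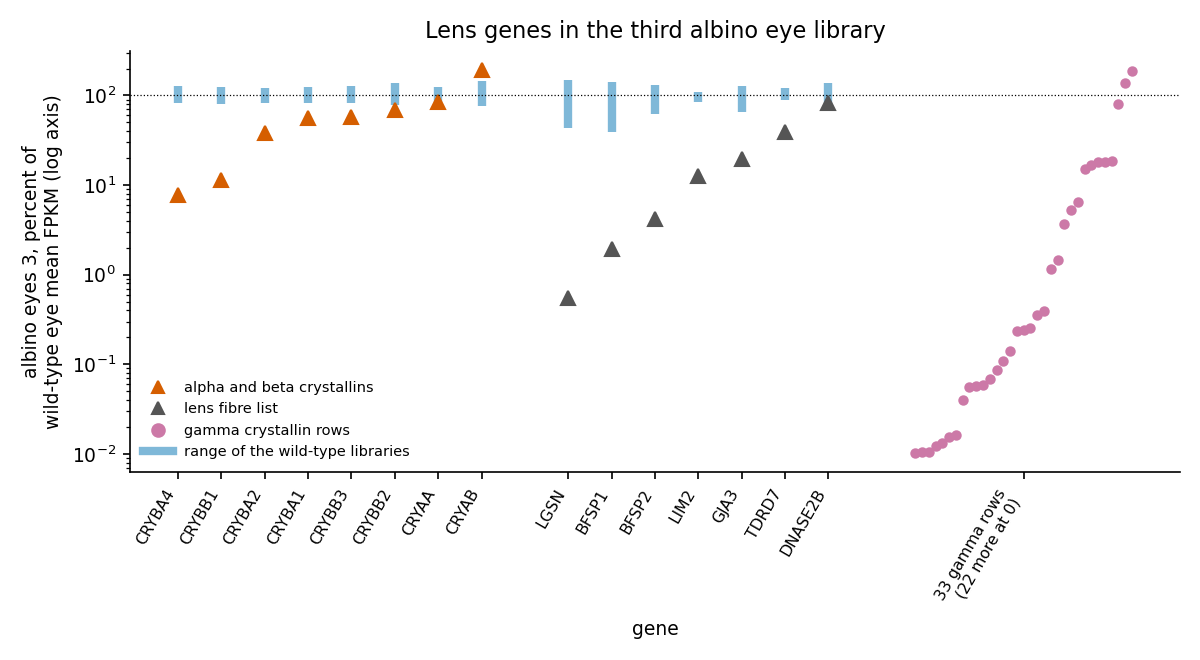
Level in albino eyes 3 as a percent of the mean of the wild-type eye libraries (log axis) for the 8 alpha and beta crystallins (orange), 7 lens fibre genes (grey) and 33 gamma crystallin rows above 0 (pink); blue bars give the range of the wild-type libraries for the first 2 sets. The 8 crystallins spread from 7.85% to 193%, and most gamma crystallin rows lie below 1%, with 22 more at 0.

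The summed FPKM of the 8 genes was set against that of the fibre genes, without the MIP row. In log2 units the ratio was 7.93, 8.27 and 9.57 in albino eyes, against 6.92, 6.59 and 6.33 in wild-type eyes. The albino libraries were all higher, by 1.98 on average (exact permutation p = 0.1, the smallest possible). In albino eyes 1 and 2 the numerator is CRYAB. The fibre sum there, 12.2 and 10.2 FPKM, was mostly TDRD7, at 8.01 and 7.70 FPKM, and the listed gene DNASE2B, at 3.48 and 1.72 FPKM. Neither is confined to the lens: wild-type liver had means of 3.95 FPKM for TDRD7 and 12.7 FPKM for DNASE2B. In albino eyes 1 and 2 the ratio therefore has a fibre sum made mostly of genes not confined to the lens. How much of the RNA in either sum there came from the lens was not tested. With the mean of the log2 FPKM of the 8 genes in place of their sum, the difference turned to -2.20 (exact permutation p = 0.4). The higher ratio in albino eyes 3, where all lens sets were present, is thus the part of this comparison that does not rest on CRYAB alone. Its size depends on leaving MIP out. In that library MIP had 246.9 FPKM, above the fibre sum of 91.4 FPKM, while in each wild-type library MIP was below the fibre sum.

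Of 15 listed regulators of lens and eye development 13 were tested, and 2 were called, both lower in albino eyes: SOX1, which in mice is needed for gamma crystallin expression and fibre elongation, at -2.80 ± 0.48 (edgeR adjusted p = 0.0149), and SOX2, its relative in lens induction, at -1.40 ± 0.20 (adjusted p = 0.00733). Over all 17817 genes tested in eyes, 11.2% were called and 6.1% were called lower. SOX1 had 21, 22 and 62 counts in albino eyes, against 211, 224 and 172 counts in wild-type eyes. DESeq2 called both, and PAX6, PITX3 and PROX1 as lower too, where it called 9.95% of 19563 genes lower. With albino eyes 1 and 2 left out, the median log2 difference of the 13 in edgeR was -0.277, against -0.176 with all libraries. PAX6, the master regulator of eye development, had 53.4, 46.2 and 48.5 FPKM in albino eyes, against 53.0, 49.75 and 53.4 FPKM in wild-type eyes (adjusted p = 0.0846). These groups overlapped. PROX1 and MAF, activators of crystallin genes in mammals and birds, had log2 differences of -0.81 (adjusted p = 0.117) and 0.01 (adjusted p = 0.968), and PITX3 had -1.96 (adjusted p = 0.0821).

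Since CRYAB is itself a small heat shock protein, the other members of that family were read beside it. Of 8 listed, 5 were tested and edgeR called 0 of them in eyes, with 3 under an unadjusted p of 0.05. DESeq2 called HSPB1 and HSPB8 higher in albino eyes, where it called 7.85% of 19563 genes higher. HSPB1, an abundant stress chaperone, had 29.7, 34.85 and 41.0 FPKM in albino eyes, against 14.5, 6.25 and 21.4 FPKM in wild-type eyes (log2 difference 1.09, adjusted p = 0.102). HSPB6, a muscle chaperone in mammals, had 29.8, 60.35 and 78.6 FPKM in albino eyes, against 14.6, 7.83 and 27.2 FPKM in wild-type eyes (log2 difference 1.53, adjusted p = 0.13). HSPB8 had 31.3, 28.5 and 26.9 FPKM in albino eyes, against 15.8, 17.6 and 17.8 FPKM in wild-type eyes. HSPB7 had 13.0, 13.2 and 26.1 FPKM in albino eyes, against 14.9, 6.10 and 14.8 FPKM in wild-type eyes, and its groups overlapped. HSPB1, HSPB6 and HSPB8 were higher in every albino library than in any wild-type library, without passing edgeR's test. Such separation was common: it held in either direction for 40.6% of the 17817 genes tested in eyes, and for 8.33% with albino eyes lower. It therefore does not set HSPB1, HSPB6 and HSPB8 apart from other genes. HSPB2, the neighbour of CRYAB, had a log2 difference of -0.45 (adjusted p = 0.557). Among chaperones that work with alpha crystallins, 7 were tested and 1 was called lower in albino eyes, the constitutive chaperone HSPA8, at -0.61 ± 0.16 (adjusted p = 0.048). The share called lower over all genes tested in eyes was 6.1%. Of the other genes that carry a crystallin name, 5 were tested and edgeR called 0, with 3 under an unadjusted p of 0.05, while DESeq2 called CRYL1. CRYM, a thyroid hormone binding protein, had a log2 difference of -0.53 (edgeR adjusted p = 0.111).

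CRYAB is also a muscle gene in mammals, so muscle markers are given beside its values. CKM, the muscle creatine kinase, had 2586, 6396 and 6405 CPM in albino eyes, against 1628, 804 and 2143 CPM in wild-type eyes. The 8 of 12 listed skeletal muscle markers that were in the table summed to 4364 to 9517 CPM in albino eyes and 1245 to 3480 CPM in wild-type eyes, without overlap. Of all 17817 single genes tested in eyes, 40.6% were separate between the groups in either direction. With unscaled library totals, as in CPM, the median log2 difference of all genes was itself 0.275. Albino eyes 2 and 3 had like CKM levels, while CRYAB was at 3128 FPKM in albino eyes 2 and at 9049 FPKM in albino eyes 3. These libraries also differed in lens RNA, with lens markers at 4.88 CPM in albino eyes 2 and 22983 CPM in albino eyes 3. Parts of muscle and lens in CRYAB therefore cannot be told apart from them. The part of muscle in the CRYAB level was not tested. Pigment epithelium markers summed to 4776 to 6152 CPM in albino eyes and 2918 to 3931 CPM in wild-type eyes, and glial markers to 5887 to 7526 CPM and 4345 to 5115 CPM in albino and wild-type eyes.

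Only other genes with a symbol and a mean of at least 1 FPKM in eyes were compared for likeness with the 8. Rows named only by a LOC number, which include most gamma crystallin rows, were left out. Among the 9657 genes compared, the 1 whose log2 FPKM followed the mean of the 8 most closely over the 6 eye libraries was GRIFIN. GRIFIN is a galectin-related protein found between lens fibres and had an r of 0.999. It had 2.12, 1.98 and 1675 FPKM in albino eyes, against 1436, 2575 and 1677 FPKM in wild-type eyes, so that albino eyes 3 lay within the wild-type range as for CRYAA. The next were LG05H8orf88 with r of 0.985 and the heme synthesis enzyme ALAD with r of 0.982. ALAD had 5.68, 6.46 and 23.7 FPKM in albino eyes and 23.0, 39.8 and 28.1 FPKM in wild-type eyes. Over all 18 libraries GRIFIN again came first, with r of 0.997, followed by SPARCL1 with 0.983, LIM2 with 0.982 and CRYGN with 0.979. These correlations describe libraries that fall into separate clusters. Among the 8 genes, r with their own mean over the 6 eye libraries was 0.674 for CRYAB and 0.973 to 0.998 for the others. Each of the 8 is itself part of that mean, which raises its r, while GRIFIN is not.

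Outside the eye the 8 genes had few reads, at most 222 counts in any skin library and at most 10 in any liver library. In wild-type animals all 8 were called higher in eyes than in skin by edgeR, where 55.8% of 18338 genes were called and 29.2% were called higher in eyes. All 8 were also called higher in eyes than in liver, where 68.9% of 18047 genes were called and 38.6% higher in eyes. They entered these tests through their counts in eyes, so the counts of calls describe where the RNA is rather than testing it. CRYAA had 1839393 counts over the 3 wild-type eye libraries and 0 counts over the 3 wild-type skin libraries, at least 620798-fold higher in eyes when skin is taken at 3 counts for the 3 libraries together. CRYAB had 445882 counts in wild-type eyes and 98 counts in wild-type skin, a ratio of 4607 (95% exact counting interval 3780.0 to 5674.5), and 0 counts in wild-type liver, at least 159612-fold lower than eyes. The smallest ratios of wild-type eyes to wild-type skin were those of CRYAB, CRYBA2 at 6320.5 and CRYBB1 at 8170.3. Intervals and floors cover counting error only. In albino eyes 1 and 2 the lowest genes came down to the level of skin: CRYBA4 had 20 and 16 counts there, against 2 to 21 counts in the 6 skin libraries.

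**Figure D5:**
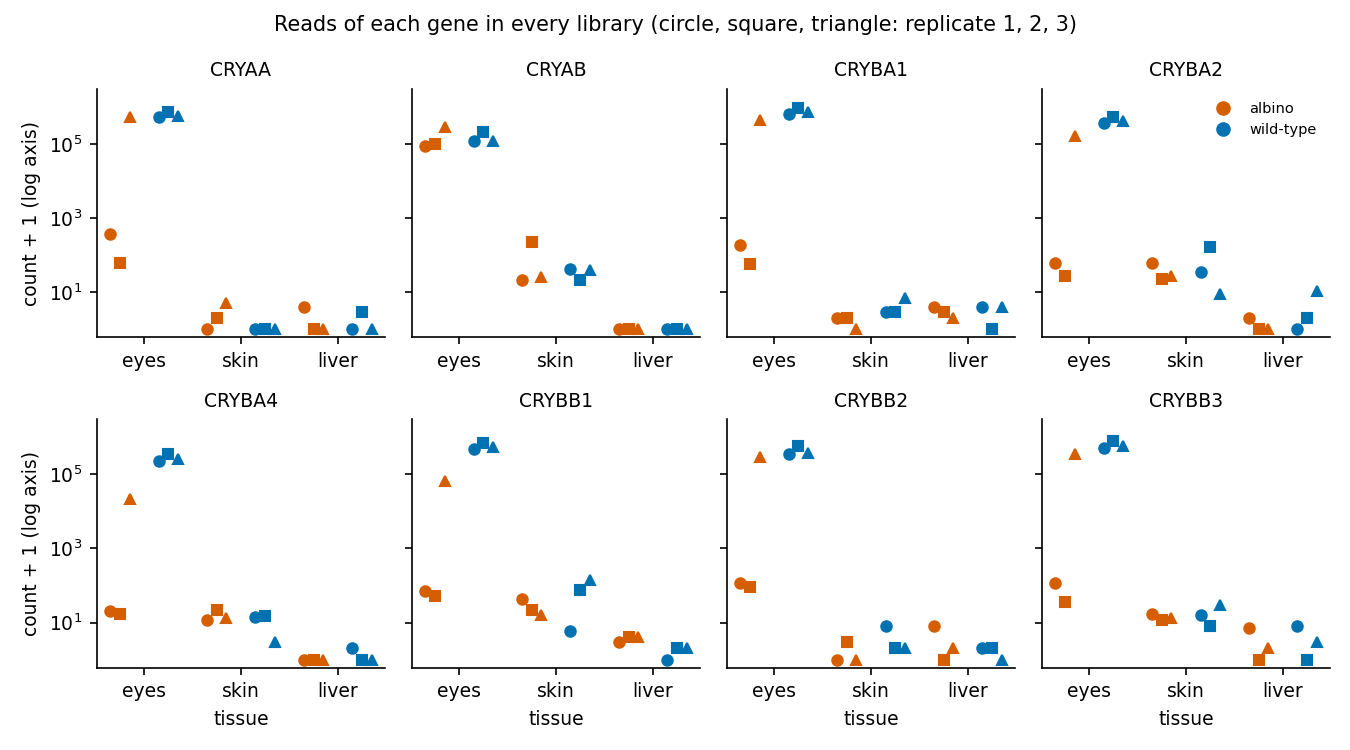
Count plus 1 (log axis) of each gene in every library of eyes, skin and liver; orange points are albino and blue points wild-type, with circle, square and triangle for replicates 1, 2 and 3. Eyes stand above skin and liver for every gene, except that albino eyes 1 and 2 lie among the skin points for CRYBA2, CRYBA4 and CRYBB1, and CRYAB is 0 in all liver libraries.

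In skin, 5 of the 8 genes had enough counts to be tested between albino and wild type, and edgeR called 0 of them, against 0.0946% of 16921 genes. Of these 5, 0 had an unadjusted p under 0.05, and DESeq2 also called 0. CRYAB had 20, 222 and 25 counts in albino skin, against 40, 20 and 38 counts in wild-type skin. A single library, albino skin 2, stood apart, and the log2 difference of 1.32 ± 0.90 (adjusted p = 0.582) turned to -0.46 without it. That library also had 4253 counts of CKM, against 0 to 17 in the other skin libraries, and its 8 skeletal muscle markers summed to 194 CPM, the highest of the skin libraries. It further held 893 counts of PAX6, against 0 to 7 in the other skin libraries. The part of other tissue in the CRYAB count was not tested.

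The beta crystallins of skin varied from library to library in both genotypes. CRYBB1 had 42, 21 and 15 counts in albino skin, against 5, 72 and 139 counts in wild-type skin, and CRYBA2 had 60, 22 and 27 counts in albino skin, against 34, 167 and 8 counts in wild-type skin. The groups overlapped for both. The log2 differences were -1.49 ± 1.09 for CRYBB1 (edgeR adjusted p = 0.615) and -0.74 ± 1.00 for CRYBA2 (adjusted p = 0.8). CRYBA4 had 11, 21 and 12 counts in albino skin and 13, 14 and 2 counts in wild-type skin, and CRYBB3 had 16, 11 and 12 counts in albino skin and 15, 7 and 29 counts in wild-type skin. CRYAA, CRYBA1 and CRYBB2 had at most 7 counts in any skin library and were not tested.

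In liver, CRYAB had 0 counts in all 6 libraries, which allows a level of up to 0.0257 CPM over the albino libraries and 0.0260 CPM over the wild-type libraries. The other 7 genes had 0 to 10 counts per liver library. None of the 8 had enough counts for the test between albino and wild-type liver, in which edgeR called 5.76% of 14990 genes; DESeq2 gave 1 of the 8 an adjusted p and called 0. Between wild-type skin and wild-type liver, CRYAB was the 1 gene of the 8 that could be tested, and it was called higher in skin, at a log2 difference of 7.72 ± 1.18 (edgeR adjusted p = 0.00447), where 44.4% of 16919 genes were called and 25.3% called higher in skin. CRYAB entered this test through its counts in skin alone, so the call describes where the RNA is rather than testing it. The 98 counts of CRYAB in wild-type skin, against 0 counts in wild-type liver, correspond to at least 34.65-fold more in skin.

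Whether the albino difference itself differed between tissues was tested as an interaction. Between eyes and skin edgeR called 0 of the 8 genes, against 0.991% of 19477 genes, and between eyes and liver it called 0 of the 8, against 3.42% of 19128 genes; 0 of the 8 had an unadjusted p under 0.05 in either test. DESeq2 called 1 of the 7 genes with an adjusted p between eyes and skin, against 4.78% of 19384 genes. Between eyes and liver it called 0 of the 8, against 8.95% of 18770 genes. The gene called between eyes and skin was CRYAA, at a log2 difference of -19.6. CRYAA had 0, 1 and 4 counts in albino skin and 0 counts in every wild-type skin library, so this value rests on skin counts near 0. By edgeR the most negative value between eyes and skin was that of CRYBA4, at a log2 difference of -6.17 ± 2.87 (edgeR adjusted p = 0.39). Without albino eyes 3, edgeR called 5 of the 8 genes between eyes and skin, where 0.811% of 19975 genes were called, and 4 between eyes and liver, where 2.97% of 19534 genes were called.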

How the data were processed

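Total RNA was extracted with a phenol-based reagent and made into libraries with a VAHTS Universal V10 kit, per the labels' protocols. Reads were aligned and counted with HISAT2 and HTSeq, per the submitters' processing notes; versions, genome build and strandedness were not stated there. The authors deposited whole-read counts per gene with no normalization, and FPKM computed from those counts with 1 length per gene.

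Counts were tested in R 4.3.3 with edgeR 4.0.16 (filterByExpr, TMM scaling, robust quasi-likelihood test, Benjamini-Hochberg adjustment over all genes tested, false discovery rate 0.05), for albino against wild type in each tissue, between tissues in wild type, and as an interaction. Alternatives used DESeq2 1.42.0, limma 3.58.1 on log2(FPKM + 1) or log2(FPKM + 0.1), other scalings and filters, a replicate block, and each library left out. Shares were compared by exact two-sided permutation tests. CPM are over library totals. For a group at 0, folds are bounds computed at 3 counts for its libraries together. The code was tested on simulated data.

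The members and lists were chosen with earlier results of these data known. Calls among the 8 members were counted in every comparison, and values are given for some of them. Fixed genes of each list were named, with the 3 gamma rows highest in eyes. The genes most alike were found by Pearson correlation of log2 FPKM over 9657 genes with a symbol, with LOC rows left out. A listed fibre gene is counted but not reported here by name. LOC141129065 and LOC141143882 were named by their place beside a member.

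Residuals of same-numbered albino and wild-type libraries had correlations from -0.182 to 0.0715 across genes, so they were treated as unpaired. Wild-type eyes and skin of the same number had 0.475, 0.32 and 0.386, so these libraries shared part of their spread. The labels state no pairing, and what is shared is not known. Wild-type liver 3 had only 0.0623 with eyes 3 and 0.0489 with skin 3, against 0.247 to 0.405 for numbers 1 and 2. The main tissue fits took the libraries as unpaired, and the block changed none of the 8 calls there.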

Additional observations from a re-analysis of the deposited data

Results flagged for a closer look

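The albino and wild-type values of CRYBB1 lay in opposite order in eyes and liver, and CRYBB1 was not called in eyes (edgeR adjusted p = 0.355). In eyes the log2 ratio of mean FPKM + 1 was -4.71, and every albino library was below every wild-type library. In liver CRYBB1 had 2, 3 and 3 counts in albino libraries, against 0, 1 and 1 counts in wild-type libraries, so that every albino library was above. CRYBB1 had at most 3 counts in any liver library and was not tested there. The interaction test between eyes and liver gave a log2 difference of -7.14 ± 4.50 (edgeR adjusted p = 0.477), which did not pass.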

How the results depend on the processing

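Between albino and wild-type eyes, 0 of the 8 genes were called under each alternative scaling, filter and tool, and 0 to 7 when each library was left out, the 7 without albino eyes 3. With the replicate block 0 were called, and 937 genes in all, against 1995; the block changed no count of calls among the 8 in any comparison, but moved their median log2 difference to -11.4, against -2.67, in eyes, to -4.93, against -2.38, in eyes minus skin and to -8.66, against -2.92, in eyes minus liver. By limma on log2 FPKM these medians were -8.88 to -8.54, -8.72 to -8.45 and -8.71 to -8.53, in the same order. The count of all genes called in eyes was 764 in 1 fit of all 18 libraries, 3161 by limma on filtered FPKM, 3482 by DESeq2, 458 to 1634 with each library left out and 62 with albino eyes 1 and 2 left out. Unscaled library totals gave 2284 higher and 623 lower, against 909 higher and 1086 lower. In skin the count of all genes was 0 to 750, against 16, in liver 134 to 1840, against 864, in eyes minus skin 0 to 927, against 193, and in eyes minus liver 75 to 3660, against 654. Library totals gave 12 higher and 11 lower in skin, against 10 and 6, 243 higher and 939 lower in liver, against 429 and 435, 49 higher and 42 lower for eyes minus skin, against 46 and 147, and 1582 higher and 234 lower for eyes minus liver, against 251 and 403. In wild type they gave 11051 higher and 2927 lower for eyes against liver, against 6958 and 5484, and 8823 higher and 1756 lower for skin against liver, against 4282 and 3237.

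The difference in the share of counts was -8.64 percentage points, -12.4 as FPKM, -4.84 with albino eyes 1 and 2 left out and -10.5 to -7.16 with each library left out. The alpha share differed by 57.0 points, 19.2 with albino eyes 1 and 2 left out and 47.4 to 75.9 with each library left out. The log2 ratio to fibre genes, MIP not among them, differed by 1.98, -2.20 as a mean of logs, 2.96 with albino eyes 1 and 2 left out and 1.49 to 2.31 with each library left out.

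Between skin and liver, 1 gene of the 1 tested was called, where 44.4% of all genes were called. Without a filter 2 of 8 were called (32.8% of all genes), and 5 of 8 by limma on log2(FPKM + 0.1) (47.3%). Limma on filtered FPKM called 0 of 1 (70.4% of all genes) and DESeq2 3 of 7 (41.8%). With each library left out 1 to 2 were called (33.7% to 43% of all genes). For eyes minus skin the main fit called 0 and DESeq2 called 1 of 7 (4.78% of all genes). With each library left out 0 to 5 were called, the 5 without albino eyes 3 (0.811% of all genes). For eyes minus liver the main fit called 0. Limma on log2(FPKM + 1) called 2 of 8 (14% of all genes), or 1 on filtered FPKM (30.1%). With each library left out 0 to 4 were called, the 4 without albino eyes 3 (2.97% of all genes). All 8 genes were called between wild-type eyes and skin or liver in every setting run.

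CRYAB in eyes changed sign to 0.10 with library totals and 0.67 with albino eyes 1 and 2 left out, and ran from -0.97 to 0.30 with each library left out, being above 0 without wild-type eyes 2, albino eyes 1 or albino eyes 2. In skin, with each library left out, CRYAB ran from -0.46 (without albino skin 2) to 1.76, CRYBA2 from -1.55 to 0.97 (without wild-type skin 2) and CRYBB3 from -0.81 to 0.43 (without wild-type skin 3), and CRYBA2 was 0.027 with the replicate block. CRYAB in eyes minus skin ran from -2.29 to 0.26 (without albino skin 2). None of these sign changes passed the test, and the cause was not tested.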

Other observations

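A further lens protein of frogs, rho crystallin (LOC141132846), was looked up after the values had been seen. It had 169.5, 174 and 10277 FPKM in albino eyes, against 11601, 22247 and 15905 FPKM in wild-type eyes. In albino eyes 1 and 2 it kept 1.02% and 1.05% of the wild-type mean, more than any of the 7 alpha and beta crystallins other than CRYAB, and in albino eyes 3 it had 62.0%.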
